A study of Homo sapiens with 21 samples.

Results

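The liver X receptors (LXRs) and the genes through which they drive cholesterol out of cells were followed in xenograft tumors of human lung cancer cells. The 8 genes were taken by symbol from the raw counts: the receptor genes NR1H2 (LXRβ) and NR1H3 (LXRα), their shared partner RXRA, and the target genes ABCA1, ABCG1, MYLIP, LPCAT3 and SMPDL3A. Each symbol matched 1 of the 60651 genes counted, and all 8 passed the filter on low counts in every comparison. Tumors were grown under the skin of female athymic nu/nu mice, aged 6 to 8 weeks, from A549-Luc2 cells, a human lung adenocarcinoma line that carries luciferase, mixed with Matrigel. Each group had 10 mice, and RNA from 7 samples per group was sequenced, each taken here as 1 tumor. The 7 Control tumors came from mice given the formulation solution alone. The 7 Oxy186 tumors and 7 Oxy210 tumors came from mice given that oxysterol derivative daily by oral gavage at 50 mg/kg. Nude mice lack T cells, and every tumor holds mouse stroma around the human cells. The study continued with Oxy186-treated samples r1-r4, which it had chosen from a principal component plot of these same libraries, and it compared them with the control group.

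LXRs are nuclear receptors that bind DNA as heterodimers with a retinoid X receptor and are switched on by natural oxysterols, the oxidized forms of cholesterol. When activated, they induce ABCA1 and ABCG1, the membrane transporters that hand cholesterol to lipid-poor apolipoprotein A-I and to high-density lipoprotein, and they induce MYLIP, a ubiquitin ligase that limits the uptake of lipoprotein cholesterol. LPCAT3, which places polyunsaturated fatty acids into membrane phospholipids, and SMPDL3A, a secreted phosphodiesterase, are further known targets. Whether Oxy186 or Oxy210 acts on LXR was not measured directly in these data, which hold transcript levels.

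LXR binding elements are classically 2 direct repeats of the half-site AGGTCA spaced by 4 bases, known as DR4. Of the 8 genes, 6 had RefSeq promoter windows (GRCh38.p14, 250 bases before to 50 after the start), 10 windows in all, and those of ABCG1 and SMPDL3A were not analysed here. Both strands were searched for 2 half-sites spaced by 4 bases, with at most 1 mismatch in each half-site. The ABCA1 window was the one member window with a match. The match lies on the strand opposite the gene, with its first base 69 bases before the start, at chr9:104928209-104928224. It is shown because ABCA1 is the target whose level varied most among the tumors. In the first line below the half-sites stand in capitals within 60 bases of the ABCA1 strand (minus strand, chr9:104928187-104928246), and in the second line the match is read on the opposite strand.
ABCA1 promoter: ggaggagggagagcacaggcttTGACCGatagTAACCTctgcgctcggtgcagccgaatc
ABCA1 match, opposite strand: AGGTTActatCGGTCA
With 1 mismatch in each half-site it is a loose match, and 1.38% of all 35116 promoter windows held one as close or closer. With 1 mismatch in all, 0.205% of windows matched, with none, 0.0199%, and no member window was among them. Receptor binding at this site was not measured in these data, and the search of letters alone cannot tell whether LXR binds there.

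Total counts on human genes lay between 13787493 and 17865119 per tumor, with overlapping ranges in the 3 groups. The least different pair of libraries within a group still differed by a chi-square of 10.9 per degree of freedom, so each tumor counted as 1 replicate. Libraries differed in how counts followed the GC content of genes. The GC slope, the change in log2 CPM (counts scaled to library size) against the average library for each 10 points of exon GC percent, was lowest in Oxy186 r1-r4 (-0.51 to -0.18). Oxy186 r5-r7 had slopes of 0.079 to 0.49, Control tumors -0.15 to 0.40 and Oxy210 tumors -0.33 to 0.26. The members' fold changes are therefore given without and with GC offsets, a fit in which the GC trend of each library is taken out. The A549 label held: the 8 epithelial markers together reached 13827 to 26006 CPM per tumor, and the keratin KRT8 alone at least 3261 CPM. Of 10 macrophage markers, 4 had a median count of 0, among them CD163 and MRC1, and the summed level was 12.3 to 32.2 CPM in Control, 12.6 to 23.2 in Oxy186 and 12.7 to 19.3 in Oxy210 tumors. The 6 endothelial markers summed to at most 6.59 CPM, with VWF and KDR at a median count of 0 and PECAM1 at 14 to 58 counts per tumor. The 8 fibroblast and mural markers summed to 115 to 233 CPM in Control, 103 to 263 in Oxy186 and 80.8 to 159 in Oxy210 tumors, most of it LUM and COL1A1, while COL1A2 had a median count of 0. The study kept only reads aligned to the human genome from a combined human and mouse reference, so these marker levels do not measure the mouse stroma. In bulk tumors, fewer cells that express a gene and less RNA per cell cannot be told apart.

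Per exon length, the receptor genes stood above the transporters. In RPKM (CPM divided by the length of the exon union in kilobases), mean levels over the 21 tumors were 14.8 ± 5.18 (SD, n = 21) for NR1H2, 6.06 ± 1.24 for NR1H3, 4.85 ± 1.28 for SMPDL3A, 4.82 ± 1.18 for MYLIP, 3.51 ± 1.08 for ABCG1, 3.14 ± 0.96 for RXRA, 2.05 ± 0.44 for LPCAT3 and 1.88 ± 1.34 for ABCA1. NR1H2 was above NR1H3 in 19 of 21 tumors and MYLIP above ABCG1 in 17. Neighbours in this order whose levels could not be separated were SMPDL3A and MYLIP (the first higher in 10 of 21 tumors), ABCG1 and RXRA (10 of 21) and LPCAT3 and ABCA1 (13 of 21). RXRA exceeded LPCAT3 in 18 tumors, and NR1H3 exceeded SMPDL3A in 14. LPCAT3 is uncertain in this order, since 66% of its exon bases are shared with EMG1 on the other strand and whether counting used the strand is not given in the sources used here.

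**Figure D1:**
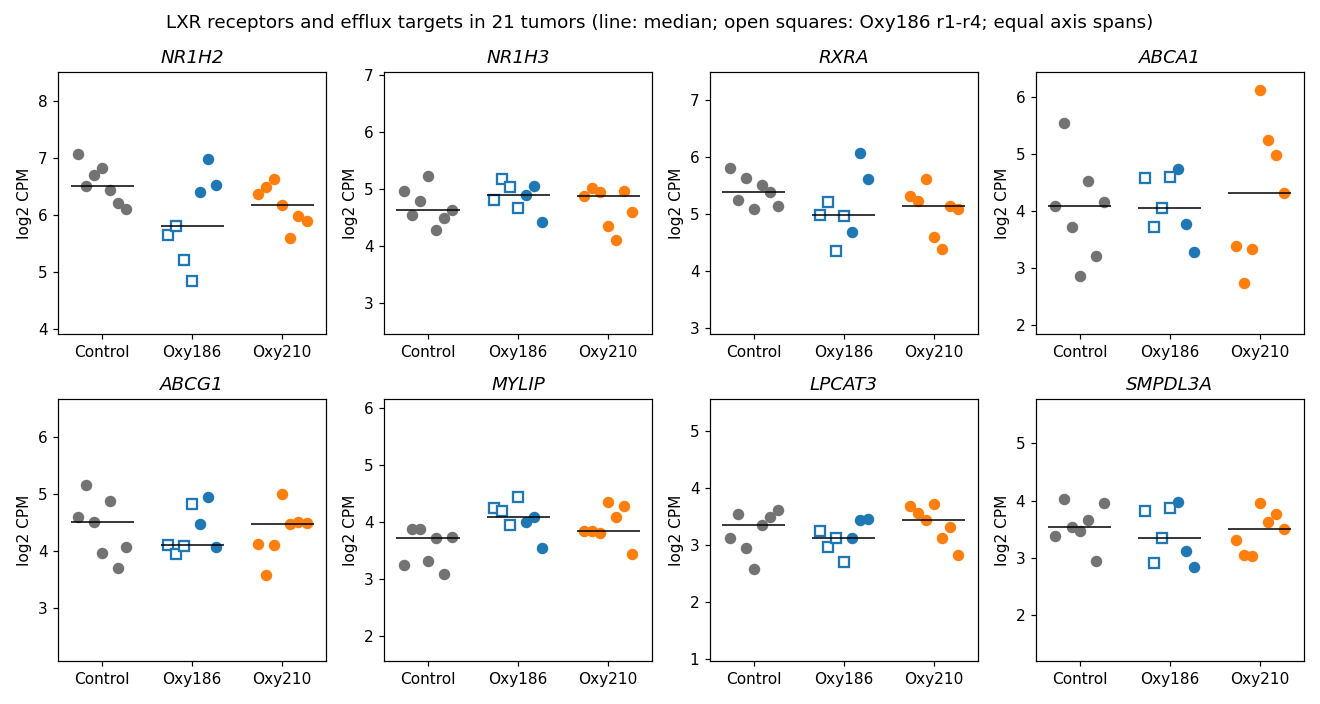
Level of each gene in log2 CPM (vertical axis, the same span of 4.6 log2 units in each panel) in 7 Control, 7 Oxy186 and 7 Oxy210 tumors, 1 point per tumor, with a line at the group median and open squares for Oxy186 r1-r4. The groups overlap for each of the 8 genes, ABCA1 is spread over the widest range (2.74 to 6.12 log2 CPM), and Oxy186 r1-r4 lie below every Control tumor for NR1H2.

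NR1H2, on chromosome 19 from 50329653 to 50383388 (GRCh38, plus strand), encodes LXRβ, the receptor found in most tissues. Its level was 6.10, 6.50 and 7.06 log2 CPM at the lowest, the median and the highest Control tumor, 4.83, 5.81 and 6.98 in Oxy186 tumors and 5.60, 6.18 and 6.63 in Oxy210 tumors. Both treated groups reached below the lowest Control tumor and overlapped the control range. The log2 fold change was -0.51 (SE 0.27, 95% interval -1.08 to 0.059, adjusted p = 0.862) for Oxy186 and -0.36 (SE 0.16, interval -0.69 to -0.033, adjusted p = 0.326) for Oxy210 (edgeR, with p adjusted across every gene tested by the Benjamini-Hochberg method). With GC offsets these became -0.29 and -0.18, again not past the threshold. NR1H2 is a GC-rich transcript (59.6% GC in its exons), and 22.1% of its exon bases overlap NAPSA on the other strand, which had only 10 to 53 counts per tumor.

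NR1H3, which encodes LXRα, the form best known from liver, fat and macrophages, lies on chromosome 11 from 47248300 to 47269033 (plus strand). Levels ran from 4.28 over a median of 4.64 to 5.24 log2 CPM in Control tumors, from 4.42 over 4.90 to 5.18 in Oxy186 tumors and from 4.11 over 4.88 to 5.03 in Oxy210 tumors. The 3 groups covered nearly the same range. Fold changes on the log2 scale were 0.14 (SE 0.15, interval -0.18 to 0.46) for Oxy186 and 0.018 (SE 0.16, interval -0.31 to 0.35) for Oxy210. GC offsets gave 0.37 (SE 0.16, interval 0.021 to 0.71) and 0.13 (SE 0.12, interval -0.13 to 0.39). The edgeR adjusted p was 0.872 and 0.964 without and 0.844 and 0.657 with GC offsets, and an overlap with ACP2 on the other strand touches 4.17% of the exon bases.

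RXRA, the retinoid X receptor that pairs with LXRs and with many other nuclear receptors, lies on chromosome 9 from 134317098 to 134440585 (plus strand) and has the most GC-rich exons of the 8 genes (62% GC). It ranged from 5.08 to 5.80 log2 CPM in Control tumors with a median of 5.38, from 4.34 to 6.07 in Oxy186 tumors with a median of 4.98, and from 4.39 to 5.61 in Oxy210 tumors with a median of 5.13. The Oxy186 tumors reached both below and above the control range. Its log2 fold change was -0.21 (SE 0.22, interval -0.68 to 0.26) for Oxy186 and -0.30 (SE 0.16, interval -0.63 to 0.027) for Oxy210, with edgeR adjusted p of 0.868 and 0.388. For Oxy186 the direction turned with GC offsets, to 0.20 (interval -0.13 to 0.52), and for Oxy210 the value became -0.089 (interval -0.30 to 0.12).

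Among the targets, ABCA1 (chromosome 9, 104781006 to 104928155, minus strand) is the transporter that begins the building of high-density lipoprotein. Control tumors held 2.87, 4.10 and 5.54 log2 CPM at the lowest, the median and the highest, Oxy186 tumors 3.29, 4.07 and 4.74, and Oxy210 tumors 2.74, 4.32 and 6.12. Within the Oxy210 group, r1, r2 and r3 were at 3.40, 2.74 and 3.33, and r4 to r7 at 6.12, 5.25, 4.98 and 4.32, so the group held both the lowest and the highest of the 21 tumors. The log2 fold change of ABCA1 was -0.094 (SE 0.35, interval -0.84 to 0.65, adjusted p = 0.961) for Oxy186 and 0.51 (SE 0.48, interval -0.49 to 1.503, adjusted p = 0.616) for Oxy210 in edgeR. The Oxy210 value rested on r4: without it the log2 fold change was 0.052. With GC offsets the values were -0.14 and 0.43. The Oxy210 value was 0.89 without Control r2, the Control tumor with the highest level, and without that tumor the Oxy186 value was 0.34.

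ABCG1, the transporter that exports cholesterol to mature high-density lipoprotein, lies on chromosome 21 from 42199689 to 42297244 (plus strand). From lowest over median to highest, its level was 3.71, 4.51 and 5.17 log2 CPM in Control tumors, 3.96, 4.11 and 4.95 in Oxy186 tumors and 3.59, 4.49 and 5.00 in Oxy210 tumors. The groups overlapped throughout. On the log2 scale the fold change was -0.12 (SE 0.23, interval -0.60 to 0.37, edgeR adjusted p = 0.924) for Oxy186 and -0.082 (SE 0.23, interval -0.56 to 0.40, adjusted p = 0.882) for Oxy210, and both turned to slightly above 0 with GC offsets (0.058 and 0.054).

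MYLIP, the ubiquitin ligase also called IDOL, lies on chromosome 6 from 16129086 to 16148248 (plus strand). Its lowest, median and highest levels were 3.10, 3.73 and 3.89 log2 CPM in Control tumors, 3.55, 4.09 and 4.44 in Oxy186 tumors and 3.44, 3.84 and 4.35 in Oxy210 tumors. Of the 7 Oxy186 tumors, all but r7 lay above the highest Control tumor. The log2 fold change was 0.49 (SE 0.17, interval 0.13 to 0.85) for Oxy186 and 0.42 (SE 0.17, interval 0.061 to 0.78) for Oxy210. Both intervals lie above 0, but after adjustment over all genes neither passed in edgeR's quasi-likelihood test (unadjusted p = 0.0109 and 0.0241, Benjamini-Hochberg adjusted p = 0.862 and 0.312). GC offsets left the values at 0.46 and 0.39. The control tumors are the same 7 in both comparisons, so the values do not stand for separate evidence.

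LPCAT3 (chromosome 12, 6976185 to 7018477, minus strand) held 83 to 172 counts per Control tumor, 100 to 157 per Oxy186 tumor and 113 to 192 per Oxy210 tumor, with medians of 159, 130 and 159. Its log2 fold change was -0.13 (SE 0.19, interval -0.52 to 0.27) for Oxy186 and 0.15 (SE 0.18, interval -0.22 to 0.53) for Oxy210. SMPDL3A (chromosome 6, 122789049 to 122809720, plus strand) held 113 to 239 counts per Control tumor, 96 to 236 per Oxy186 tumor and 119 to 228 per Oxy210 tumor, with medians of 199, 141 and 182. The ranges of both genes overlapped in all groups. For SMPDL3A the log2 fold change was -0.15 (SE 0.22, interval -0.61 to 0.31) for Oxy186 and -0.088 (SE 0.19, interval -0.49 to 0.31) for Oxy210. With GC offsets the values were -0.096 and 0.18 for LPCAT3 and -0.24 and -0.22 for SMPDL3A. The edgeR adjusted p of these 2 genes was 0.689 or higher in both comparisons, and 0.538 or higher with GC offsets.

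Read as a set, the 8 genes gave 0 calls for Oxy186 and 0 for Oxy210 in edgeR at an adjusted p of 0.05, beside 0% of 16291 and 0% of 16396 genes tested, with or without GC offsets. At an unadjusted p under 0.05 there was 1 member for Oxy186 (MYLIP), beside 3.79% of all genes, and there were 2 for Oxy210 (NR1H2 and MYLIP), beside 13.8%. With GC offsets there were 3 for Oxy186 (NR1H2, NR1H3 and MYLIP), beside 5.91% of all genes, and the same 2 for Oxy210, beside 14.4%. DESeq2 and limma voom also gave 0 members in both comparisons, while DESeq2 called 0 and 92 of all genes. The median log2 fold change of the 5 targets was -0.12 for Oxy186 and 0.15 for Oxy210, where the median over all genes was -0.0067 and 0.0086. With GC offsets the medians of the targets were -0.096 and 0.18, and those over all genes 0.011 and 0.0012.

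Oxy186 and Oxy210, given at the same dose, were then compared directly, as 1 pair of compounds. None of the 8 members passed edgeR's quasi-likelihood test, beside 0% of 16361 genes called (0.00611% with GC offsets, the single gene RPL6P27). No member was under an unadjusted p of 0.05 either, beside 4.06% of all genes (8.12% with GC offsets, again with no member), and DESeq2 called 0 members and 3 genes in all. The intervals of the difference, Oxy186 minus Oxy210 on the log2 scale, show what sizes remain possible. They were narrowest for NR1H3 (0.15, interval -0.19 to 0.48), MYLIP (0.099, interval -0.25 to 0.45) and LPCAT3 (-0.25, interval -0.61 to 0.10). For ABCG1 the difference was -0.0014 (interval -0.45 to 0.44), and for SMPDL3A it was -0.034 (interval -0.49 to 0.42). NR1H2 (-0.13, interval -0.70 to 0.45) and RXRA (0.12, interval -0.38 to 0.62) were less precise. For ABCA1 the interval was the widest and reached much further below 0 (-0.56, interval -1.47 to 0.35), and without Oxy210 r4 its difference was -0.11. With GC offsets the difference was 0.28 (interval -0.035 to 0.60) for RXRA, 0.24 (interval -0.094 to 0.56) for NR1H3, -0.11 (interval -0.35 to 0.13) for NR1H2 and -0.57 (interval -1.43 to 0.29) for ABCA1. The other 4 genes were then at -0.27 (LPCAT3), -0.024 (SMPDL3A), 0.0022 (ABCG1) and 0.070 (MYLIP).

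**Figure D2:**
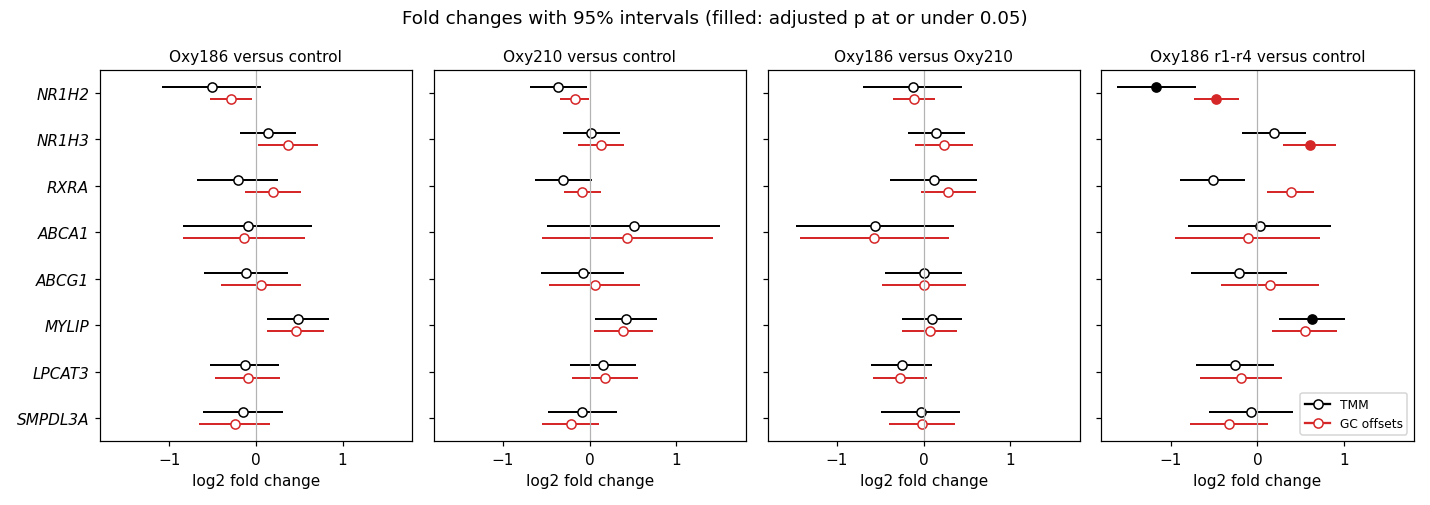
Log2 fold change (horizontal axis) of each of the 8 genes with its 95% interval in 4 comparisons, without GC offsets in black and with them in red, where filled points passed an adjusted p of 0.05. In the first 3 panels no point is filled and ABCA1 has the widest intervals. In the panel of Oxy186 r1-r4, NR1H2 is filled on both scales, MYLIP without and NR1H3 with GC offsets, and RXRA moves from -0.52 to 0.38.

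In Oxy186 r1-r4 against the control group, NR1H2 was called lower and MYLIP higher, in a comparison where calls were common among all genes. These 4 tumors were picked by the study from the same libraries, so the comparison is not independent evidence of a treatment effect, and 19.7% of all 16852 genes were called in it (4.73% higher, 15.0% lower, 34.7% at an unadjusted p under 0.05). NR1H2 was at 5.65, 5.81, 5.20 and 4.83 log2 CPM in r1 to r4, each below the lowest Control tumor, and at 6.404, 6.98 and 6.52 in r5, r6 and r7, within the control range. Its log2 fold change in r1-r4 was -1.17 (SE 0.21, interval -1.62 to -0.71, adjusted p = 0.00208), 0.45-fold of control. MYLIP was at 4.24, 4.19, 3.96 and 4.44 in r1 to r4, each above the highest Control tumor, and its log2 fold change was 0.63 (SE 0.18, interval 0.25 to 1.01, adjusted p = 0.0233 in edgeR). The share of all genes whose r1-r4 values lie wholly outside the control range was not counted, so the lack of overlap does not set these genes apart. Without Oxy186 r4, MYLIP did not pass (adjusted p = 0.0721). RXRA fell just outside the threshold in edgeR (-0.52, SE 0.18, adjusted p = 0.0523) and within it in DESeq2 and limma voom (adjusted p = 0.0439 and 0.0494). In edgeR it also passed without Oxy186 r2 (adjusted p = 0.0335), without Control r4 (0.0409) and without Control r7 (0.0382). The remaining 5 genes, ABCA1, ABCG1, LPCAT3, SMPDL3A and NR1H3, had log2 fold changes between -0.26 and 0.19, none past the threshold.

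GC offsets changed which members were called in r1-r4, and with them 4.05% of all genes were called (1.79% higher, 2.26% lower, 18.7% at an unadjusted p under 0.05). NR1H2 stayed lower, by less: its GC-trend-removed level was 5.50 to 6.07 log2 CPM in r1-r4, against 6.18 to 6.57 in Control tumors, and its log2 fold change was -0.48 (SE 0.12, edgeR adjusted p = 0.0408). NR1H3 rose by 0.60 on the log2 scale (SE 0.14, adjusted p = 0.0295), with GC-trend-removed levels of 5.05 to 5.44 in r1-r4 against 4.23 to 5.06 in Control tumors, a slight overlap. MYLIP kept its direction at 0.54 (SE 0.17), with r3 (3.82) now inside the control range (up to 3.91), and missed the threshold (adjusted p = 0.0986). RXRA turned from lower to higher, at 0.38 (SE 0.13, adjusted p = 0.115). SMPDL3A was at -0.33, LPCAT3 at -0.19, ABCA1 at -0.11 and ABCG1 at 0.15, none past the threshold. So 2 of 8 members were called on each scale, and NR1H2 was the one called on both. EMG1, which shares 66% of the exon bases of LPCAT3 on the other strand, was itself called lower in r1-r4. Its log2 fold change was -0.58 without and -0.55 with GC offsets (edgeR adjusted p = 0.0233 and 0.0439). What part of the LPCAT3 counts came from EMG1 was not tested, for this or any other LPCAT3 value. The study took r1-r4 as one set and their GC slopes were the lowest of the Oxy186 tumors, so the part of GC trend and of treatment in these 4 libraries cannot be told apart.

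The balance of the LXR receptor transcripts differed among the Oxy186 tumors. This measure, log2 CPM of NR1H2 minus that of NR1H3, was chosen after the values were seen and is given without a test. It was 1.84 ± 0.26 (SD, n = 7) in Control tumors and 1.46 ± 0.26 (SD, n = 7) in Oxy210 tumors. In Oxy186 tumors it was 0.84, 0.63, 0.17 and 0.16 in r1 to r4 and 1.502, 1.92 and 2.10 in r5 to r7. All of r1-r4 lay below the lowest Control tumor (1.46) and the lowest Oxy210 tumor (1.01), and r5-r7 lay within the control range. With the GC trend removed, r1-r4 were at 1.01, 0.76, 0.46 and 0.45, the Control tumors at 1.496 to 2.09 and the Oxy210 tumors at 1.04 to 1.85. Per exon length this is 2.34- to 3.81-fold more NR1H2 than NR1H3 in Control tumors and 0.95- to 1.52-fold in r1-r4.

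**Figure D3:**
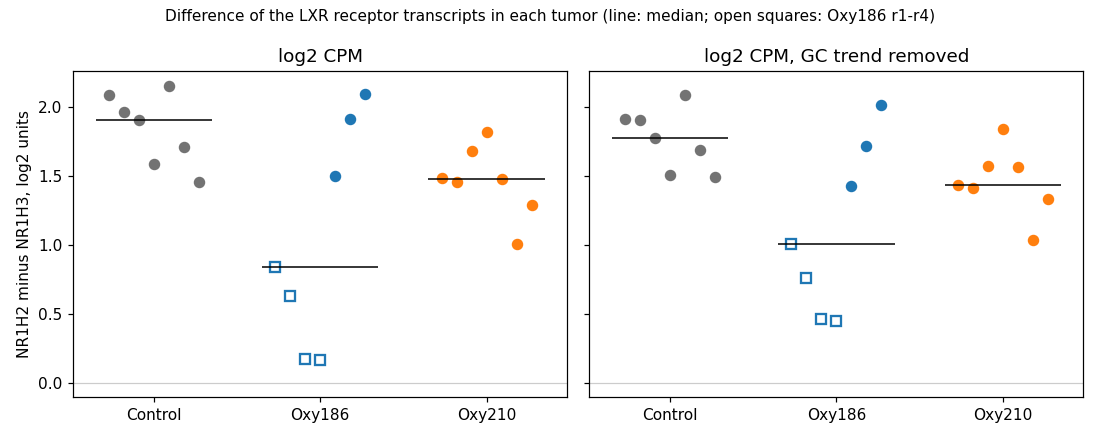
Difference of NR1H2 and NR1H3 (vertical axis, log2 units) in each tumor, from log2 CPM on the left and after removal of the GC trend on the right, with a line at the group median and open squares for Oxy186 r1-r4. On both sides r1-r4 lie lowest, at 0.16 to 0.84 and at 0.45 to 1.01. Oxy186 r5-r7 lie within the control range on the left, and on the right r5 (1.43) lies just below it.

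ABCA1 was the most variable of the 8 genes within groups. The SD of its log2 CPM, pooled over the 3 groups, was 0.92 and higher than that of 97.5% of 16990 genes (98.5% with the GC trend removed), where the median gene had 0.37. For the other 7 it lay between 0.31 (MYLIP) and 0.53 (NR1H2). With the GC trend removed, the SD of NR1H2 fell to 0.20 and that of RXRA from 0.44 to 0.29, while ABCG1 was at 0.50 and ABCA1 at 0.91. The exons of ABCA1 hold 45.4% GC, and its spread was nearly the same on both scales.

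From tumor to tumor, ABCA1 and ABCG1 rose and fell together. Of 28 pairs among the 8 genes, tested over the 21 tumors with the GC trend removed, theirs had the highest correlation. Pearson's r was 0.89 and Spearman's rho 0.90, and both permutation p-values were 1e-05, a floor set by the 100000 permutations (adjusted p = 0.00028). Without the 2 tumors farthest from the median of ABCA1, r was 0.85, and without Oxy186 r1-r4 it was 0.94 (n = 17). Within the groups r was 0.96 in Control, 0.59 in Oxy186 and 0.98 in Oxy210 tumors. In log2 CPM as counted, r was 0.75 (rho 0.72, permutation p = 8e-05 and 0.00039, adjusted p = 0.00112 and 0.00364). Of 13607 genes ranked by their r with ABCG1, ABCA1 was first with the GC trend removed and number 46 without removal. Ranked on ABCA1, ABCG1 was number 7 and number 205. These relations were chosen after the values were seen.

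SMPDL3A moved with ABCA1. Its r with ABCA1 was 0.67 with the GC trend removed (rho 0.68, permutation p = 0.00094 and 0.0008, adjusted p = 0.0132 and 0.0112, 0.56 without the 2 farthest tumors) and 0.78 without removal. Within the groups it was 0.73 in Control, 0.92 in Oxy186 and 0.88 in Oxy210 tumors. With ABCG1 its r was 0.62 (rho 0.56, permutation p = 0.00296 and 0.00941, adjusted p = 0.0276 and 0.0527), past the threshold by r and not by rho, and as counted it passed by both (r = 0.59, rho 0.60, adjusted permutation p = 0.039 and 0.0276). MYLIP with ABCG1 also passed by r and not by rho (r = 0.55, rho 0.56, adjusted permutation p = 0.0447 and 0.0527), and by neither as counted (r = 0.37, rho 0.36, adjusted p = 0.234 and 0.233). MYLIP had r = 0.56 with ABCA1 (rho 0.57, permutation p = 0.00889 and 0.00782, adjusted p = 0.0447 and 0.0527), so it passed by r and not by rho. In log2 CPM as counted it passed by rho (0.60, adjusted permutation p = 0.0276) and not by r (0.55, adjusted p = 0.0606). The share of all genes that reach such an r with ABCA1 or ABCG1 was not counted. These values therefore do not set SMPDL3A or MYLIP apart from other genes. LPCAT3 did not follow ABCA1 (r = 0.29, rho 0.14, adjusted permutation p = 0.443 and 0.776). No relation of a receptor transcript with ABCA1 passed the threshold: r was -0.13 for NR1H2 (rho -0.11), -0.19 for NR1H3 (rho -0.18) and -0.17 for RXRA (rho -0.13), with adjusted permutation p of 0.588 or higher. As counted, r was -0.34, -0.52 and -0.49 (rho -0.44, -0.43 and -0.50), with adjusted permutation p of 0.0708 or higher. The relation of NR1H2 and RXRA depended on the scale, with r = -0.60 (rho -0.52, adjusted permutation p = 0.0363 and 0.0771) when the GC trend was removed and r = 0.70 (rho 0.77, adjusted p = 0.00308 and 0.00084) when it was not. With the GC trend removed it also depended on Oxy186 r1-r4: without them r was -0.24 (n = 17). Without the 2 tumors farthest from the median of NR1H2 it was -0.42. As counted, r was 0.74 without r1-r4.

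Other LXR targets were set against ABCA1 in 14 relations computed together. APOC1, an apolipoprotein gene next to APOE, fell as ABCA1 rose (r = -0.83, rho -0.88, permutation p = 3e-05 and 1e-05, adjusted p = 0.00042 and 0.00014, -0.81 without the 2 farthest tumors). Its r was -0.97 in Control, -0.69 in Oxy186 and -0.93 in Oxy210 tumors. How many of all genes fall this closely with ABCA1 was not counted, so the value does not set APOC1 apart. APOC1 levels with the GC trend removed spanned 1.81 to 4.08 log2 CPM. In log2 CPM as counted, its r was -0.85. APOE and FASN then also passed, both with r below 0 (r = -0.58 and -0.57, rho -0.69 and -0.65, adjusted permutation p = 0.0237 for both by r and 0.00448 and 0.00859 by rho), but with the GC trend removed they did not (adjusted p = 0.125 and 0.091). SREBF1, the LXR target that drives fatty acid synthesis, did not pass on either scale (r = 0.33 and -0.15, rho 0.40 and -0.22, adjusted permutation p = 0.265 and 0.548).

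**Figure D4:**
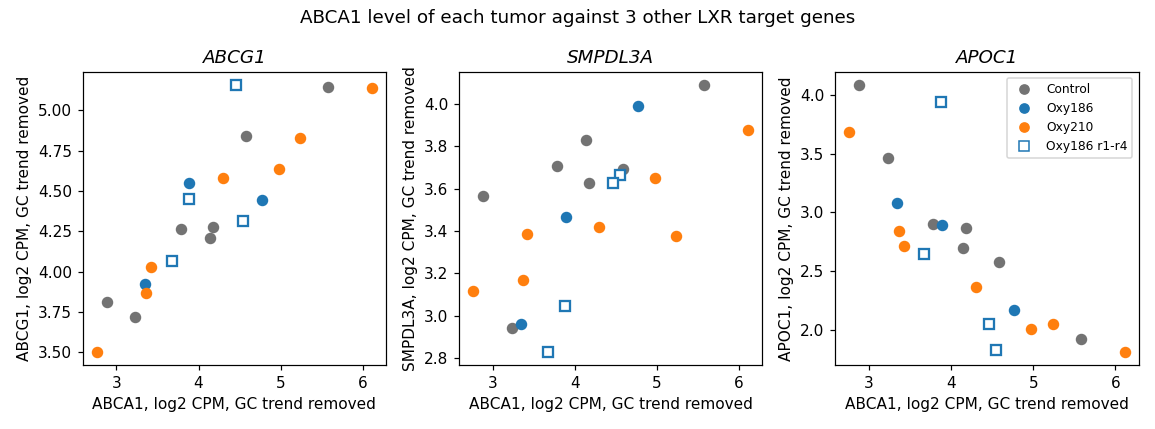
Level of ABCG1, SMPDL3A and APOC1 (vertical axes) against that of ABCA1 (horizontal axes) in 21 tumors, 1 point per tumor, all in log2 CPM with the GC trend removed, colored by group with open squares for Oxy186 r1-r4. ABCG1 and SMPDL3A rise with ABCA1 (r = 0.89 and 0.67) and APOC1 falls (r = -0.83), with tumors of all groups along each trend.

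The 3 genes most like each member across the 21 tumors were found by Pearson's r with the GC trend removed, among 13607 genes averaging 1 log2 CPM or more, and this is a description without a test. For ABCA1 they were PTPRM (r = 0.92), KPNA5 (0.90) and IGFBP5 (0.90), and for ABCG1 they were ABCA1 (0.89), RALGDS (0.88) and SLFN5 (0.87). NR1H2 was most like ATP6V0B (0.92), SELENOW (0.92) and METRN (0.91), and NR1H3 most like NSMCE1 (0.88), DYNLL1 (0.86) and CEBPD (0.86). RXRA had STAU1 (0.90), AP3D1 (0.89) and ZNF48 (0.89). The closest genes to SMPDL3A were GOLGA8B (0.88), MANBA (0.87) and INHA (0.86), to LPCAT3 ATP2B1 (0.91), CCDC134 (0.84) and SLC4A2 (0.82), and to MYLIP SLC23A2 (0.77), RAB4B (0.76) and DGLUCY (0.75). Some of these depended on the scale: without removal of the GC trend, r was 0.92 for ABCA1 and PTPRM, 0.98 for NR1H2 and ATP6V0B, but 0.082 for RXRA and STAU1 and -0.015 for MYLIP and DGLUCY. All genes are read from the same 21 libraries, and what the members of a pair share beyond that was not tested.

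Around the 8 genes, the other parts of the pathway were read from lists. The shares over all genes belong beside each count below. At an unadjusted p under 0.05 they were 3.79% for Oxy186 and 13.8% for Oxy210. In r1-r4, 15.0% of all genes were called lower and 4.73% higher, and with GC offsets 2.26% and 1.79%. Of 12 other retinoid X receptor genes and nuclear receptor partners, 11 were tested and 0 passed in edgeR for Oxy186 or Oxy210, with 0 and 1 at an unadjusted p under 0.05. RXRG, the third retinoid X receptor, had 0 counts in every tumor. In r1-r4, 5 of the 11 were lower and none was higher: RXRB by -0.88 (SE 0.20, edgeR adjusted p = 0.00732), RARG by -1.11 (0.00965), THRA by -0.73 (0.0258) and VDR by -0.69 (0.0338), beside RARA. With GC offsets 0 of 11 passed, and RXRB was at -0.41. The 14 coactivators and corepressors of LXR also had 0 calls for Oxy186 or Oxy210 (0 and 2 at an unadjusted p under 0.05), and among those called in r1-r4 HDAC3 (-0.40) was lower and the corepressor NCOR1 (0.38) higher, again with 0 calls with GC offsets. HDAC3 then kept most of its size (-0.35, SE 0.099, edgeR adjusted p = 0.062), and NCOR1 was at 0.21 (adjusted p = 0.268).

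Of 21 further LXR targets, 14 were tested against Oxy186 and 13 against Oxy210, and 0 passed in either comparison in edgeR. Levels of several were too low for the test: CYP7A1, APOC2 and LPL had a median count of 0, and ABCG5 and ABCG8 of 4 and 3. The median log2 fold change over the tested targets was -0.18 for Oxy186 and -0.18 for Oxy210, and with GC offsets -0.064 and -0.12. At an unadjusted p under 0.05 there were 1 (PLTP, the phospholipid transfer protein gene, -0.64) and 2 (SREBF1, -0.49, and PLTP, -0.66). Of all genes, 15.0% were called lower in r1-r4 and 4.73% higher. In r1-r4, SREBF1 (-1.36, SE 0.23, edgeR adjusted p = 0.00143), FASN (-1.01, 0.0117) and APOE (-1.16, 0.0305) were lower and none was higher. These 3 have exon GC of 61.5%, 65.2% and 63.7%, and with GC offsets they were at -0.49, 0.17 and -0.058, none past the threshold.

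Among 16 other cholesterol efflux and acceptor genes, 12 were tested and 0 passed for Oxy186 or Oxy210 in edgeR (0 and 1 at an unadjusted p under 0.05). Beside 15.0% of all genes called lower in r1-r4 and 4.73% higher, some of these genes were called there. In r1-r4, STARD3 (-1.01, edgeR adjusted p = 0.00245), SCARB1 (-0.86, 0.00269), ABCA7 (-1.08, 0.00684) and GRAMD1A (-0.56, 0.0203) were lower and LIPA, the lysosomal acid lipase gene, was higher. SCARB1, which encodes the scavenger receptor that exchanges cholesterol with high-density lipoprotein, was the one that also passed with GC offsets (-0.66, adjusted p = 0.00841). Its values for all Oxy186 and all Oxy210 tumors were -0.43 (SE 0.21) and -0.30 (SE 0.15), not past the threshold. Of the 9 substrates and ubiquitin partners of MYLIP, 8 were tested with 0 calls for Oxy186 or Oxy210 (0 and 1 at an unadjusted p under 0.05), and UBE2D1 was higher in r1-r4 (0.48, edgeR adjusted p = 0.0377) but not with GC offsets (0.22).

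The 10 paralogs of LPCAT3 and SMPDL3A were all tested, with 0 calls for Oxy186 or Oxy210 (0 and 1 at an unadjusted p under 0.05), and in r1-r4 MBOAT7 (-0.97, edgeR adjusted p = 0.00603) and SMPD3 (-0.90, 0.0418) were lower. The 15 genes of the SREBP2 branch, which raise cholesterol synthesis where LXR lowers the store, also gave 0 calls for Oxy186 or Oxy210 (0 and 1 at an unadjusted p under 0.05). INSIG1, which holds back SREBP processing, was at -0.45 (SE 0.14, edgeR adjusted p = 0.27) for Oxy210. In r1-r4, MVD (-1.41), LSS (-0.79), SCAP (-0.74) and SREBF2 (-0.71) were lower, with edgeR adjusted p of 0.00312 to 0.0153, and 0 passed with GC offsets. The share of all genes called lower in r1-r4 was 15.0%, and with GC offsets 2.26%. Of these lists, the genes called in r1-r4 and lower had exon GC of 50.1% or more, and those higher had 43.8% or less.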

How the data were processed

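RNA from 21 tumors was sequenced and the authors deposited raw read counts per gene. Per the paper's methods and the submitters' processing notes, reads were trimmed with Trimmomatic 0.39, aligned with STAR 2.7.6a to a joint human (GRCh38, GENCODE 37) and mouse genome, and human alignments alone were counted at unique positions with featureCounts (Subread 2.0.1). Reads that human and mouse genes share could be lost or misassigned. Whether counting used the strand is not given in the sources used here. The authors also deposited log2 CPM for the control and Oxy186 r1-r4 tumors, which values recomputed from the counts matched to within 4.97e-14 over 16852 genes.

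Genes were filtered with filterByExpr, scaled by TMM and tested with edgeR 4.0.16 (R 4.3.3) by the quasi-likelihood test, 7 against 7 tumors, and 4 against 7 for r1-r4. The study itself used limma voom, run here as an alternative with DESeq2 1.42.0 and limma 3.58.1. Genes were called at 0.05 or less after Benjamini-Hochberg adjustment across every gene tested. SEs were the fold change divided by the root of F, and 95% intervals used the total degrees of freedom of the fit. GC offsets removed, per library, a spline (4 degrees of freedom) of log2 CPM deviation on exon GC from GENCODE 44, known for 99.8% of tested genes. Correlations were tested with 100000 permutations, two-sided. Replicate numbers showed no steady pairing of the tumors (same-numbered libraries correlated between -0.398 and 0.329). These correlations used log2 CPM with the GC trends left in, so they cannot exclude a pairing. Sample titles give a group and a replicate number per library and name no mouse. Each library was taken as 1 tumor, and p-values measure the spread between libraries. Named genes were the 8 members, the 3 genes most alike to each, and from each list up to 4 genes called in any comparison by smallest p. RARA, LIPA, PLTP, INSIG1, APOC1 and genes listed at or near 0 were named after their values were seen. Results of some list genes are not reported here. The 8 members and all lists were chosen with earlier results of these data known, and the scripts were tested on simulated data.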

Additional observations from a re-analysis of the deposited data

How the results depend on the processing

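No member was called for Oxy186, Oxy210 or between the compounds under any alternative run, but directions of small changes turned. For Oxy186, ABCA1 was at 0.090 with voom, 0.088 with a replicate block and 0.039 with the block and GC offsets, RXRA at 0.20 with GC offsets and 0.16 with the block added, and ABCG1 at 0.058 and 0.088. Leaving out 1 library at a time gave -0.24 to 0.34 for ABCA1 and -0.20 to 0.064 for ABCG1. For Oxy210, NR1H3 was at -0.0017 with all 21 libraries in one fit and at -0.045 to 0.11 leaving out libraries, and ABCG1 at 0.054 with GC offsets, 0.052 with the block added and -0.22 to 0.059 leaving out libraries. Between the compounds, ABCG1 was at 0.0061 with DESeq2 and with RLE scaling, 0.013 with voom, 0.019 with no filter, 0.015 with all libraries, 0.0022 with GC offsets, 0.0094 with the block and 0.043 with both. Leave-one-out ranges there were -0.12 to 0.13 for ABCG1, -0.13 to 0.066 for SMPDL3A, -0.35 to 0.0089 for NR1H2 and -0.085 to 0.23 for RXRA.

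In r1-r4, 2 members were called, against 1 with the replicate block, 0 with the block and GC offsets, 1 with a fold change over 2 required, and 1 to 3 leaving out libraries (1 without Oxy186 r4). GC offsets gave RXRA 0.38, ABCA1 -0.11 and ABCG1 0.15, and with the block RXRA 0.50, ABCG1 0.12 and LPCAT3 0.085. Leaving out libraries gave -0.12 to 0.42 for ABCA1 and -0.18 to 0.086 for SMPDL3A. Of all genes, 3323 were called, against 683 with GC offsets, 68 with the block and GC offsets, 1406 with the fold rule, and 1875 and 1835 without Oxy186 r3 or r4. For Oxy210, DESeq2 called 92 genes, edgeR with no filter 11 and with the block 2, against 0. Of the 24 genes most alike, 5 were also found without GC removal and 6 without r1-r4, and 5 of 8 members kept their rank per length with the longest transcript. Same-numbered libraries correlated over 0.1 in 0, 3 and 1 of 7 pairs in the 3 pairs of groups, so the block result is given here alone. The causes of these changes were not tested. The correlations, their version without GC removal and the receptor balance were chosen after seeing the data. No library stood apart in 32 checks of a member within a group, where chance would give 1.6.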
